A study of Homo sapiens with 9 samples.

Results

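The comparison described here sets human embryonic stem cells of the line HUES9 at day 13 with the compound AA147 against the same line at day 1, across all genes of a deposited read count table. All 27730 gene symbols of the table are members. A read was counted for 18228 of them, and 13761 passed the minimum count needed for a test. The study holds 9 RNA sequencing libraries in 3 groups of 3, and the comparison uses 6 of them: the 3 day 1 libraries, labelled with no agent, and the 3 libraries with AA147 at 10 µM. The remaining 3 libraries, with RP22 at 10 µM at day 13, serve only to show where the change with AA147 differed from that with an inactive analog. The submitters describe AA147 as an activator of the ATF6 branch of the unfolded protein response. The labels call the 3 libraries of a group independent experiments, all from 1 cell line.

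Per the labels, the stem cells of every group were kept on mitomycin C treated mouse embryonic fibroblasts in conditioned medium with FGF2. For differentiation they were treated with Stemolecule, spun into embryoid bodies without FGF2, held in suspension and then plated on Matrigel, and medium with the compound was replaced every day. The compounds were dissolved in DMSO, and cells with solvent alone are not analysed here. The labelled day and the compound both differ between AA147 and day 1, so that time in culture and compound cannot be told apart in that comparison; AA147 and RP22 were set side by side at 1 dose and 1 day. The table does not tell reads of mouse feeder cells from human reads, and their part in the results was not tested. These are bulk samples, in which fewer cells of a type and less RNA per cell cannot be told apart.

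ATF6 is a membrane protein of the endoplasmic reticulum (ER), the compartment in which secreted proteins are folded. When unfolded proteins accumulate, ATF6 moves to the Golgi and is cut by proteases, and its freed part enters the nucleus and switches on genes for ER chaperones. The other branches of the response run through IRE1, which splices XBP1 mRNA, and through PERK, which slows translation and raises ATF4. Embryonic stem cells hold a network of transcription factors around POU5F1 (OCT4), SOX2 and NANOG. Once FGF2 and activin signals are withdrawn that network is lost, and the cells take on mesodermal, endodermal, ectodermal or extraembryonic character.

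Levels are given as CPM, the reads of a gene scaled to library size after correction for composition by the TMM method, in the order of replicates 1, 2 and 3. A fold change is on the log2 scale, with its standard error (SE), and each adjusted p-value comes from edgeR's quasi-likelihood test with Benjamini-Hochberg adjustment over all genes tested. A gene is called as risen or fallen where the adjusted p is under 0.05. Differences between AA147 and RP22 come from the same test on those 6 libraries.

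The libraries held between 9223027 and 10118258 reads. Their make-up differed between groups: collagen genes took 5.76 to 6.88% of the reads with AA147, 0.176 to 0.212% at day 1 and 1.90 to 4.02% with RP22. FN1 alone took 1.69 to 1.94% with AA147 against 0.0041 to 0.0065% at day 1. Ribosomal protein genes took 1.27 to 1.45% with AA147 and 2.66 to 2.92% at day 1. TMM factors were 0.78 to 0.82 with AA147, 1.08 at day 1 and 1.12 to 1.19 with RP22. Without them, with library totals alone, the median log2 fold change over all genes moved from −0.04 to −0.48 against day 1 and from 0.06 to −0.49 against RP22. Replicate 1 stood apart in each group. The chi-square per degree of freedom of its counts against those of replicates 2 and 3 was 13.8 and 8.47 at day 1, 10.0 and 10.5 with AA147 and 28.0 and 26.9 with RP22. Replicates 2 and 3 compared with each other gave 3.66 at day 1, 5.08 with AA147 and 2.39 with RP22. Day 1 replicate 1 held reads of several genes that were near 0 in the other day 1 libraries, among them COL3A1, ITGB6 and TFAP2A, and log2 fold changes that rest on it are also given without it.

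**Figure D1:**
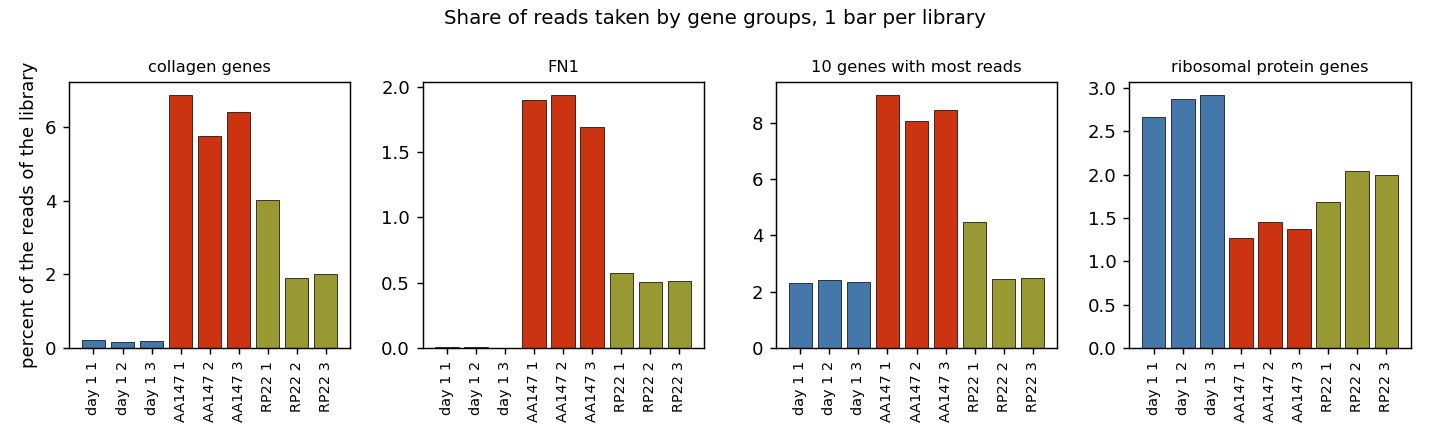
Percent of each library's reads taken by collagen genes, by FN1, by the 10 genes with the most reads and by ribosomal protein genes (vertical axes), with 1 bar per library. The 3 AA147 bars for collagen genes reach 5.76 to 6.88%, above all RP22 bars (1.90 to 4.02%) and all day 1 bars (0.176 to 0.212%), and RP22 replicate 1 is the highest of its group.

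Most genes changed. Stem cell factors, cell division genes and FGF receptors fell, while genes for collagens, fibronectin, integrins, keratins, contractile proteins and the ER folding machinery rose. Of the 13761 genes tested, 5331 rose (38.7%) and 5546 fell (40.3%), so that 79% were called in either direction. Changes of at least 2-fold were called upward in 3294 genes (23.9%) and downward in 2950 (21.4%), and changes of at least 8-fold in 1011 and 765. The 3 AA147 and the 3 day 1 libraries did not overlap for 82.3% of the genes tested. The spread between replicates, as the biological coefficient of variation, was 12.3%. With library totals alone in place of TMM, rises made up 34.3% of the calls instead of 49.0%. Between AA147 and RP22, 14293 genes were tested, and 62.5% differed, with 34.5% higher and 28% lower with AA147. That split depended on the scaling: with library totals alone 1900 genes were higher and 8515 lower, against 4931 and 4006. With replicate 1 of both groups left out, 5454 genes rose and 5687 fell against day 1, and 5509 were higher and 4812 lower than with RP22. A count for a gene group below is to be read against these shares. It covers the tested members only, since a gene with few reads in both groups could not be tested and one that passed through the level of 1 group alone had to differ. For the gene lists, counts against RP22 cover members tested in both comparisons, except where the number tested against RP22 is given.

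**Figure D2:**
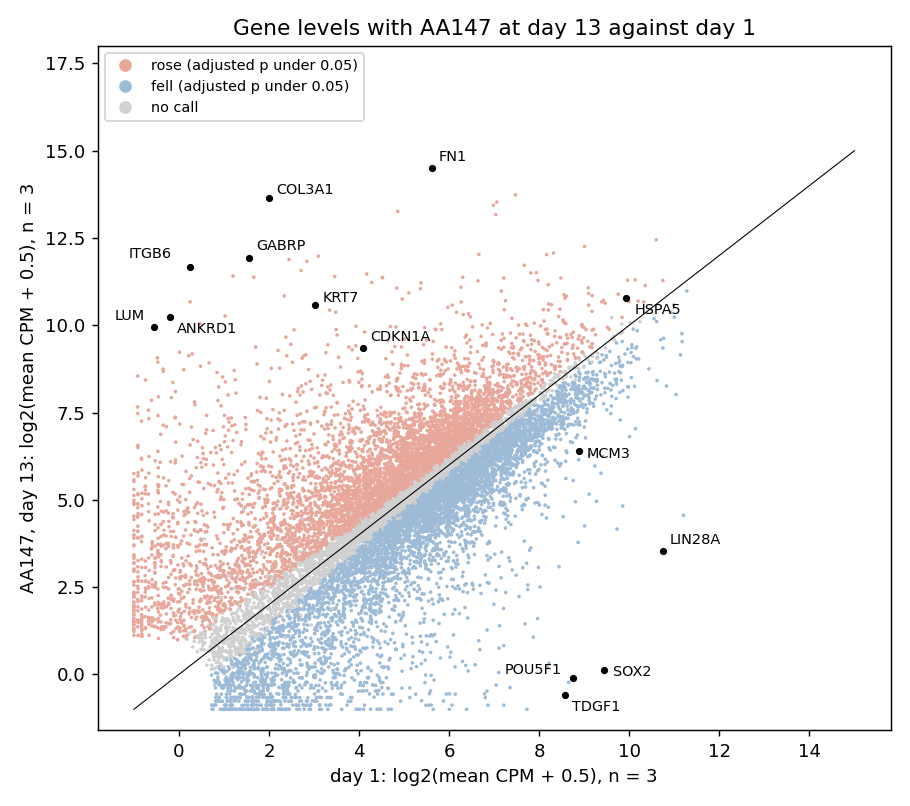
Mean level of each tested gene at day 1 (horizontal axis) and with AA147 at day 13 (vertical axis), both as log2(mean CPM + 0.5) over 3 libraries. Red points rose, blue points fell and grey points were not called; the line marks equal levels, and FN1, GABRP and COL3A1 lie far above it while POU5F1, SOX2, TDGF1 and LIN28A lie far below.

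The largest rises included matrix, adhesion and signalling genes, and also enzymes such as CYP24A1, HSD3B1 and NNMT. Among the 15 largest with at least 10 CPM in the higher group were ITGA11, an integrin subunit that binds collagen, LUM (lumican, a collagen-associated proteoglycan), ITGB6, an integrin subunit that activates latent TGF-beta, and WNT6. ITGA11 had 1 read in all day 1 libraries together and 461, 356 and 301 CPM in the AA147 libraries, a ratio of 11548 (95% counting interval 2072 to 456173). LUM was at 0.558, 0 and 0 CPM at day 1 and at 693, 1051 and 1214 CPM with AA147 (log2 fold change 12.22, SE 0.52, adjusted p = 1.18e-06). ITGB6 went from 2.05, 0 and 0 to 2534, 3711 and 3599.8 CPM (log2 fold change 12.15, SE 0.67, adjusted p = 7.96e-06). For both genes all day 1 reads came from replicate 1. Without that library the fitted log2 fold changes were 16.05 and 17.79. With 0 day 1 reads left, these values do not measure the size of the change. WNT6 had 1 day 1 read and 200.3, 192 and 213 CPM with AA147.

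Other genes of this set had no day 1 read. CYP24A1, the enzyme that breaks down vitamin D, was at 95.4, 27.2 and 38.0 CPM with AA147, at least 556-fold higher than the limit that 0 reads in the group allow, or 339-fold without AA147 replicate 1, its highest library. The same bound was 482 for OLR1, a receptor for oxidised LDL, 471 for NNMT, which methylates nicotinamide, 405 for RGS4, a regulator of G protein signals, and 356 for the adaptor DAPP1. OLR1 lost its call without replicate 1 of both groups (adjusted p = 0.076). The bounds and the ratios with few reads cover counting error only. Among the 15 largest rises, CYP24A1 and RGS4 had a higher mean level with RP22 (106 and 110 CPM) than with AA147 (53.5 and 38.8 CPM). The rest had the higher mean with AA147. HSD3B1, which makes progesterone from pregnenolone, had 1 day 1 read and 159, 229 and 144 CPM with AA147. MFAP5, a microfibril protein, reached 310.4, 389.9 and 336 CPM from 3 day 1 reads, and IGFBP7, a secreted binding protein of growth factors, 1344, 1711 and 1828 CPM from 1.77, 0.195 and 0.0997 CPM.

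Among the 15 largest falls were the stem cell factors described next and several genes with 0 reads in all AA147 libraries. VRTN was at 213, 194 and 228 CPM at day 1, at least 1602-fold above what 0 reads allow. NMRK2, a kinase that feeds NAD synthesis, was at 59.9, 99.1 and 90.6 CPM at day 1 and at least 628-fold lower with AA147. C9orf135 and PPP1R1B (DARPP-32) were at least 481 and 378-fold lower, and PREX2, an exchange factor for Rac, at least 196-fold. KCNG3, a potassium channel subunit, was at 23.8, 21.1 and 20.4 CPM at day 1 and KLF15, a zinc finger factor, at 15.8, 18.1 and 15.95 CPM, and neither had a read with AA147. Over all genes tested, 62 rose from 0 day 1 reads and 91 fell to 0 reads with AA147.

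The ER chaperones and folding factors that ATF6 is known to switch on were higher with AA147 than at day 1 and than with RP22. All 14 members of the ATF6 target list rose (median log2 fold change 0.96 against −0.04 over all genes), and 7 of them rose at least 2-fold. All 14 were also higher than with RP22; with library totals alone 13 of 14 were. The members' levels summed to 9478 to 11258 CPM with AA147, 4935 to 5490.3 CPM at day 1 and 4929.9 to 5903 CPM with RP22. The ranges of day 1 and RP22 thus overlapped, and AA147 lay above both.

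HSPA5 (BiP), the main Hsp70 chaperone of the ER, was at 854, 1113 and 949 CPM at day 1, 1577, 1880.2 and 1870.0 CPM with AA147 and 937, 788 and 834 CPM with RP22. Every AA147 library was above every other library, and the change from day 1 was 0.87 (SE 0.12) with adjusted p = 6.76e-05 and the log2 difference from RP22 1.06 with adjusted p = 9.04e-05. HSP90B1 (GRP94), the ER form of Hsp90, was at 1019.7, 1001 and 974 CPM, 2178, 2714 and 2607 CPM and 1514, 1177 and 1255 CPM in the same order (log2 fold change 1.32, SE 0.099, adjusted p = 1.03e-06), and with RP22 it lay between the other groups. With library totals alone the differences from RP22 were smaller but still called, at 0.51 for HSPA5 (adjusted p = 0.00106) and 0.38 for HSP90B1 (adjusted p = 0.0113).

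CALR (calreticulin), a lectin that holds unfolded glycoproteins, went from 776, 925 and 888 to 1667, 1971 and 2051 CPM (log2 fold change 1.14, SE 0.11, adjusted p = 5.33e-06). CANX (calnexin), its membrane-bound relative, went from 982, 1026 and 1043 to 1513, 1784 and 1619 CPM (log2 fold change 0.69, SE 0.087, adjusted p = 4.45e-05) and was lowest with RP22, at 832, 802 and 849 CPM. The largest changes of the list were in HERPUD1 and SEL1L, which act in the removal of misfolded proteins from the ER. HERPUD1 went from 17.5, 21.0 and 18.8 to 114, 134 and 129 CPM (log2 fold change 2.72, SE 0.11, adjusted p = 1.44e-08), and SEL1L from 63.6, 54.3 and 48.8 to 281, 322 and 301 CPM (log2 fold change 2.44, SE 0.11, adjusted p = 3.29e-08). With RP22 HERPUD1 was at 50.9, 48.7 and 53.1 CPM and SEL1L at 170.4, 127 and 134 CPM, in both genes above all day 1 libraries and below all AA147 libraries. DNAJC3 (p58IPK), a co-chaperone of HSPA5, had a log2 fold change of 1.55 (SE 0.088), and PDIA4, a disulfide isomerase, of 1.15 (SE 0.09). The smallest was HYOU1, an ER Hsp110, at 0.37 (SE 0.081), adjusted p = 0.00205; with library totals alone it was −0.08.

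ATF6 itself was at 38.7, 42.8 and 40.3 CPM at day 1, 112, 121 and 113 CPM with AA147 and 91.2, 81.9 and 80.1 CPM with RP22 (log2 fold change 1.51, SE 0.084, adjusted p = 1.41e-07). Both day 13 groups lay above day 1, and the log2 difference between them was 0.45 (adjusted p = 0.0014), or −0.09 (adjusted p = 0.228) with library totals alone. XBP1 went from 118, 144 and 138 to 243, 288 and 283 CPM (log2 fold change 1.02, SE 0.10, adjusted p = 7.41e-06), while RP22 stayed at 133, 142 and 143 CPM. Counts per gene do not tell the spliced form of XBP1 from the unspliced one.

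**Figure D3:**
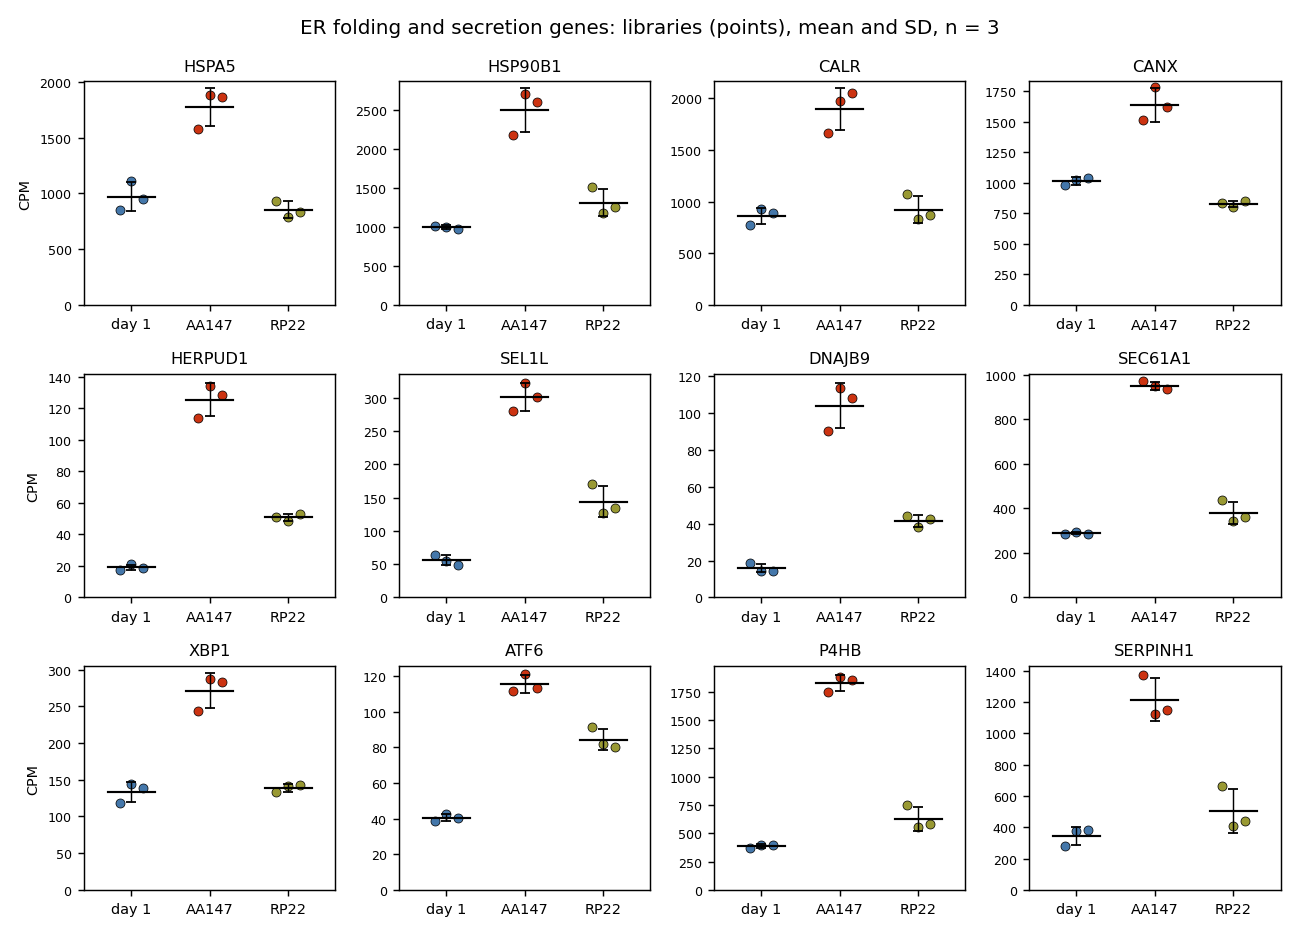
CPM (vertical axes, from 0) of 12 ER folding and secretion genes in each library (points), with the mean (line) and the SD (bars) of the 3 libraries of day 1, AA147 and RP22. In each panel all AA147 points lie above all day 1 and RP22 points; RP22 is close to day 1 for HSPA5, CALR and XBP1 and between the other groups for HERPUD1, SEL1L and ATF6.

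The promoters of these genes are known for the ER stress response element (ERSE), CCAAT and CCACG separated by 9 bases of any kind, whose CCAAT part is bound by NF-Y and whose CCACG part by ATF6, and for a shorter form, ERSE-II, in which ATTGG and CCACG are separated by 1 base. Both were searched on both strands in windows of 300 bases around the start of each gene (RefSeq, assembly GRCh38.p14; the counts were made on GRCh37.p13, so that coordinates here are of the RefSeq assembly only). ERSE was in 22 of 27305 promoters (0.0806%) and ERSE-II in 15 (0.0549%). All 14 listed ATF6 targets had a promoter sequence; 5 held ERSE (HSPA5, HSP90B1, CALR, CANX and CRELD2) and 3 held ERSE-II (HERPUD1, HYOU1 and SDF2L1). The matches of the most highly expressed of them, of CRELD2, of XBP1 and of HERPUD1 are shown because they are the letters these co-moving genes share; capitals mark the motif, in either orientation.
HSPA5: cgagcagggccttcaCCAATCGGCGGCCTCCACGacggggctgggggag
HSP90B1, far match: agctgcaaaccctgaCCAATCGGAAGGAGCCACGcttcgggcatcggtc
HSP90B1, near match: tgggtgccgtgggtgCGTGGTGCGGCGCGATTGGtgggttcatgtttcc
CALR: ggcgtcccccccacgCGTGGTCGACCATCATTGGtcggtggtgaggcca
CANX: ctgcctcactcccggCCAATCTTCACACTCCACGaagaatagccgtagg
CRELD2: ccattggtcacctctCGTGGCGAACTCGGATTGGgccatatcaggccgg
XBP1: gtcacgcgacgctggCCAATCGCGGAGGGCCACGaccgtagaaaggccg
HERPUD1: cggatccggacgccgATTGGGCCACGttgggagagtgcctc
The windows lie at chr9:125241376-125241424 on the minus strand (HSPA5), chr12:103930201-103930249 and chr12:103930306-103930354 on the plus strand (HSP90B1), chr19:12938369-12938417 on the plus strand (CALR), chr5:179698763-179698811 on the plus strand (CANX), chr22:49918539-49918587 on the plus strand (CRELD2), chr22:28800588-28800636 on the minus strand (XBP1) and chr16:56932010-56932050 on the plus strand (HERPUD1), all upstream of the annotated start. Relative to the start, the motif spanned positions −66 to −48 in HSPA5, −194 to −176 and −89 to −71 in HSP90B1, −225 to −207 in CALR, −151 to −133 in CANX, −80 to −62 in CRELD2, −52 to −34 in XBP1 and −117 to −107 in HERPUD1.

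Over all genes, 13 tested genes had an ERSE promoter: 10 rose, 1 fell and 2 were not called, with a median log2 fold change of 0.88, and 12 of the 13 were higher than with RP22. Of 11 tested genes with ERSE-II, 7 rose and 2 fell (median 0.53), and 8 were higher than with RP22. Both sets include the listed ATF6 targets named above, whose rise was already counted. Outside that list, the ERSE genes FICD, SERP1, TMEM120A, TRIM5 and XBP1 rose, EIF2A fell, and ALG12 and ZNF17 were not called. With ERSE-II, CNKSR1, GYS1, NUCB1 and SETD3 rose, SHCBP1 and ZNF143 fell, and PLS3 and RAD9A were not called. CRELD2 shares its match with the gene on the other strand, ALG12, a mannosyltransferase of the ER: CRELD2 rose by 0.88 (SE 0.13), while ALG12 was not called, at 0.20 (SE 0.12) and adjusted p = 0.162. SERP1, a stabiliser of membrane proteins in the ER, shares one with EIF2A in the same way, and SERP1 rose by 0.94 (SE 0.08) while EIF2A fell by 0.40 (SE 0.079). These pairs were singled out for the motif after their values were seen. A match describes the letters only.

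Genes of secretion and ER-associated degradation that are known targets of spliced XBP1 moved in the same way. All 13 rose (median 1.31), 10 of them at least 2-fold, and all 13 were higher than with RP22, or 11 of 13 with library totals alone. EDEM1, which sends misfolded glycoproteins to degradation, went from 17.1, 18.6 and 18.4 to 152, 171 and 144 CPM (log2 fold change 3.11, SE 0.099, adjusted p = 3.97e-09). DNAJB9 (ERdj4), a co-chaperone, went from 18.5, 14.4 and 14.6 to 90.2, 113 and 108 CPM (log2 fold change 2.71, SE 0.13, adjusted p = 5.73e-08). SEC24D, a coat protein of the vesicles that carry procollagen, rose by 2.45 and SEC61A1, the channel through which new proteins enter the ER, by 1.72 on the log2 scale. SEC24D was at 77.5, 64.7 and 65.6 CPM at day 1, 349, 405 and 386 CPM with AA147 and 179, 117 and 109 CPM with RP22, so that RP22 lay between the other groups. Summed over the list, levels were 4000.4 to 4293 CPM with AA147, 1474 to 1498 CPM at day 1 and 1793 to 2217 CPM with RP22.

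The PERK branch and the integrated stress response showed no common direction. Of 14 members 6 rose and 4 fell, and their median was 0.27 by TMM but −0.17 by library totals. ATF4, the central factor, was at 287, 367 and 334 CPM at day 1 and 297, 401 and 401 CPM with AA147, a log2 change of 0.15 that missed the threshold (95% interval −0.15 to 0.46, adjusted p = 0.317). It was called without AA147 replicate 1 (0.28, adjusted p = 0.0335) and without replicate 1 of both groups (0.19, adjusted p = 0.0254), and was −0.29 with library totals alone (adjusted p = 0.0541). ATF3, an early stress factor, rose from 19.4, 47.6 and 44.2 to 114, 172 and 164 CPM (log2 fold change 2.02, SE 0.36, adjusted p = 0.00226). The enzymes of serine synthesis PHGDH and PSAT1, known ATF4 targets, fell (log2 fold changes −1.998 and −1.25), as did ASNS, which makes asparagine (−1.001). Relative to RP22, 8 of 14 were higher and 1 lower with AA147, or 4 and 3 with library totals alone.

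Heat shock genes of the cytosol and the mitochondria were split, 5 up and 4 down of 10 tested (median 0.30, or −0.14 with library totals alone). HSPB1, a small heat shock protein, rose from 40.7, 58.5 and 58.4 to 359, 369.8 and 399.7 CPM (log2 fold change 2.84, SE 0.14, adjusted p = 1.10e-07) and its partner BAG3 from 20.2, 23.4 and 23.4 to 94.4, 106 and 100.1 CPM (log2 fold change 2.16, SE 0.097, adjusted p = 3.47e-08). The mitochondrial chaperonins HSPD1 and HSPE1 fell (log2 fold changes −1.73 and −2.04), as did HSP90AA1, the cytosolic counterpart of HSP90B1 (−0.77), and HSPA8 (−0.41), whose call was lost in 6 of 15 alternative settings (adjusted p up to 0.146). HSPH1, the cytosolic relative of HYOU1, was not called (log2 fold change −0.01, 95% interval −0.20 to 0.18) but fell with library totals alone (−0.45). HSPA1B rose by 0.63, a call that library totals alone removed (adjusted p = 0.272), and its reads cannot be assigned with certainty because HSPA1A is nearly identical.

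NRF2 drives the response to oxidants, and of its 11 listed targets 5 rose and 4 fell (median 0.29, or −0.15 with library totals alone). ME1, which makes NADPH, rose from 22.2, 34.4 and 31.5 to 133, 181 and 166 CPM (log2 fold change 2.45, SE 0.18, adjusted p = 2.87e-06), whereas HMOX1, which degrades haem, fell from 15.3, 46.4 and 34.8 to 6.42, 4.02 and 4.18 CPM (log2 fold change −2.72, SE 0.46, adjusted p = 0.00129). GCLC, of glutathione synthesis, fell by 1.12 on the log2 scale. Compared with RP22 8 of 11 were higher and 1 lower. NQO1 was not called against day 1 (90.8, 133 and 129.7 CPM at day 1, 102, 114 and 76.6 CPM with AA147, log2 fold change −0.27, adjusted p = 0.205), although 3 of 15 alternative settings called a fall (adjusted p down to 0.00837), and it was higher than with RP22, where it was at 35.0, 21.5 and 21.1 CPM (log2 difference 1.91, adjusted p = 7.69e-04). Of 14 listed targets of p53, another stress list, 11 rose and none fell (median 1.44). All 14 were higher than with RP22, or 10 higher and 1 lower with library totals alone.

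All 19 tested members of the core pluripotency list of 20 fell, the lowest median of all lists (−7.28, or −6.68 with genes at 0 reads set to their bound). Their summed level was 8350.4 to 9244 CPM at day 1, 311 to 369.6 CPM with AA147 and 749 to 1119 CPM with RP22. Of 14 members tested against RP22, 13 were lower with AA147 and 1 was higher.

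SOX2 was at 646, 711 and 728 CPM at day 1, 0.262, 1.11 and 0.380 CPM with AA147 and 21.6, 106 and 116 CPM with RP22 (log2 fold change −10.21, SE 0.21, adjusted p = 3.43e-10 against day 1, or −11.02 without AA147 replicate 2). POU5F1 was at 336, 482 and 473 CPM, 0.524, 0.277 and 0.506 CPM and 7.70, 23.4 and 29.6 CPM in the same order (log2 fold change −9.89, SE 0.26, adjusted p = 3.96e-09); some of its reads may belong to the near-identical copy POU5F1B. In both genes the 3 groups were ordered day 1, RP22 and AA147 with no overlap, and the differences between the compounds were −7.12 (adjusted p = 0.00397) and −5.49 (adjusted p = 7.06e-04). NANOG, at 15.1, 26.5 and 32.1 CPM at day 1, had 0 reads in each AA147 library, at least 185-fold lower, and 80 reads in the RP22 libraries together.

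Other stem cell genes followed. LIN28A, which blocks maturation of let-7 microRNAs, was at 1824, 1526 and 1789.6 CPM at day 1, 18.6, 6.37 and 7.97 CPM with AA147 and 162, 204 and 202 CPM with RP22 (log2 fold change −7.28, SE 0.38, adjusted p = 3.33e-06, or −7.89 without AA147 replicate 1). DNMT3B, the de novo DNA methyltransferase, was at 2238, 2367 and 2462 CPM at day 1, 24.1, 22.6 and 22.3 CPM with AA147 and 67.5, 119.6 and 146 CPM with RP22 (log2 fold change −6.68, SE 0.10, adjusted p = 1.92e-10). TDGF1 (Cripto), the co-receptor of Nodal, had 4 reads in the AA147 libraries against 275, 409 and 454 CPM at day 1. PRDM14, a repressor of differentiation genes, had 1 read with AA147 against 96.2, 138 and 113 CPM at day 1. ZFP42 (REX1), named after its values were seen, went from 212, 189 and 213 CPM to 79.8, 91.7 and 72.9 CPM (log2 fold change −1.33, SE 0.099, adjusted p = 1.04e-06).

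Other DNA methylation enzymes changed less than DNMT3B. DNMT1, which maintains methylation, and UHRF1, which recruits it, fell (log2 fold changes −1.22 and −1.18). DNMT3A was not called (log2 fold change −0.11, 95% interval −0.28 to 0.06) but fell with library totals alone (−0.55). TET1, which oxidises methylcytosine, fell from 109.6, 77.7 and 80.3 to 15.98, 13.6 and 16.8 CPM, while TET2 rose from 14.8, 7.60 and 8.97 to 30.5, 28.0 and 27.6 CPM (log2 fold change 1.45, SE 0.23, adjusted p = 2.56e-04). In all, 2 of 7 tested members rose and 4 fell.

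The Nodal and activin pathway, which sustains pluripotency, split between its ligands. NODAL and INHBB fell and INHBA, the subunit of activin A, rose from 0.558, 0.780 and 0.997 CPM to 168, 233 and 229.6 CPM (log2 fold change 8.06, SE 0.22, adjusted p = 2.64e-09), against 10.7, 9.14 and 10.2 CPM with RP22. FOXH1, the nuclear partner of SMAD2 in this pathway, fell from 58.2, 74.8 and 77.0 to 0.262, 0.139 and 0.127 CPM (log2 fold change −8.53, SE 0.26, adjusted p = 3.06e-09). Among 13 tested members 6 rose and 6 fell, and the median of 0.27 was −0.17 with library totals alone. NODAL was low throughout, at 2.14, 3.90 and 5.18 CPM at day 1 and 0.786, 0.277 and 0 CPM with AA147.

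Of 12 primitive streak genes 10 had too few reads to be tested, and LHX1 and WNT3 rose (4.52 and 4.02). LHX1 was at 0.558, 1.07 and 1.495 CPM at day 1 and 20.8, 23.4 and 27.8 CPM with AA147, and WNT3, a ligand of the streak, at 1.02, 1.07 and 0.897 CPM and 20.8, 12.6 and 15.7 CPM. T (brachyury) had 1 read at day 1, 0 with AA147 and 231 with RP22; EOMES had 9, 0 and 556 and MIXL1 20, 12 and 393.

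FGF signalling genes fell as a group, 9 of 11 tested against 2 that rose (median −3.62). FGF2 was at 329.7, 406 and 373 CPM at day 1, 22.9, 28.7 and 15.6 CPM with AA147 and 17.9, 33.4 and 32.7 CPM with RP22 (log2 fold change −4.05, SE 0.20, adjusted p = 3.84e-07), and the compounds were not told apart (log2 difference −0.33, 95% interval −1.08 to 0.43). FGFR1 fell from 840.3, 531 and 615 to 67.7, 50.6 and 42.9 CPM (log2 fold change −3.62, SE 0.24, adjusted p = 5.55e-06). The log2 fold changes were −3.90 for FGFR3, −4.57 for FGFR4 and −0.65 for FGFR2. Relative to RP22, 10 of 11 were lower, among them FGFR1 at 130, 186 and 203 CPM and FGFR3 at 87.1, 91.0 and 107 CPM.

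Genes of DNA replication and mitosis fell without exception. All 19 replication genes fell (median −2.11) and all 18 mitosis genes fell (median −2.29), and each of the 37 was also lower than with RP22. The summed level of the replication list was 3304 to 3427 CPM at day 1, 684 to 840.2 CPM with AA147 and 1332 to 1559.8 CPM with RP22. For the mitosis list it was 3932 to 4050.5, 761 to 1054 and 2319 to 2346 CPM.

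MCM3, a subunit of the replicative helicase, was at 479.8, 474 and 464 CPM at day 1 and 87.2, 79.5 and 84.9 CPM with AA147 (log2 fold change −2.49, SE 0.075, adjusted p = 2.74e-09). PCNA, the clamp of DNA polymerase, fell from 263, 235 and 249 to 102, 99.2 and 106 CPM (log2 fold change −1.28, SE 0.077, adjusted p = 2.22e-07). BUB1, a checkpoint kinase, had the lowest log2 fold change of the mitosis list and fell from 473, 416 and 451 to 40.1, 23.1 and 27.6 CPM (log2 fold change −3.88, SE 0.18, adjusted p = 2.36e-07). TOP2A was at 527, 421 and 483 CPM at day 1, 168, 119 and 136 CPM with AA147 and 459, 471 and 446 CPM with RP22, so that the RP22 libraries overlapped day 1 and lay above AA147 (log2 difference −1.70, adjusted p = 1.83e-05).

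Several inhibitors of the cell cycle rose. CDKN2B (p15), an inhibitor of CDK4 and CDK6, was at 0.745, 0.390 and 0.399 CPM at day 1, 566, 667 and 563 CPM with AA147 and 55.3, 73.0 and 58.6 CPM with RP22 (log2 fold change 10.14, SE 0.18, adjusted p = 2.09e-10). CDKN1A (p21) was at 11.4, 19.98 and 18.1 CPM at day 1, 536, 774 and 639 CPM with AA147 and 100.4, 109 and 94.4 CPM with RP22 (log2 fold change 5.30, SE 0.24, adjusted p = 4.25e-07). Each of these was higher with AA147 than with RP22 (log2 difference 3.26, adjusted p = 1.74e-06, and log2 difference 2.68, adjusted p = 5.18e-06). CDKN2A rose from 4 reads to 218 reads per group. CDKN1C (p57) went the other way, from 83.3, 76.0 and 93.2 to 23.2, 6.93 and 10.1 CPM (log2 fold change −2.64, SE 0.39, adjusted p = 8.36e-04, or −3.29 without AA147 replicate 1), with 143, 78.5 and 91.7 CPM in RP22. Among the kinases CDK4 fell by 1.52 and CDK6 rose by 0.83; CCND2 rose from 55.9, 72.8 and 69.1 to 648, 745 and 565 CPM. CCND1 was at 474, 231 and 329.7 CPM and 246, 178 and 99.5 CPM and missed the threshold (log2 fold change −0.98, adjusted p = 0.0757), while 6 of 15 alternative settings called a fall (adjusted p down to 0.0178).

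**Figure D4:**
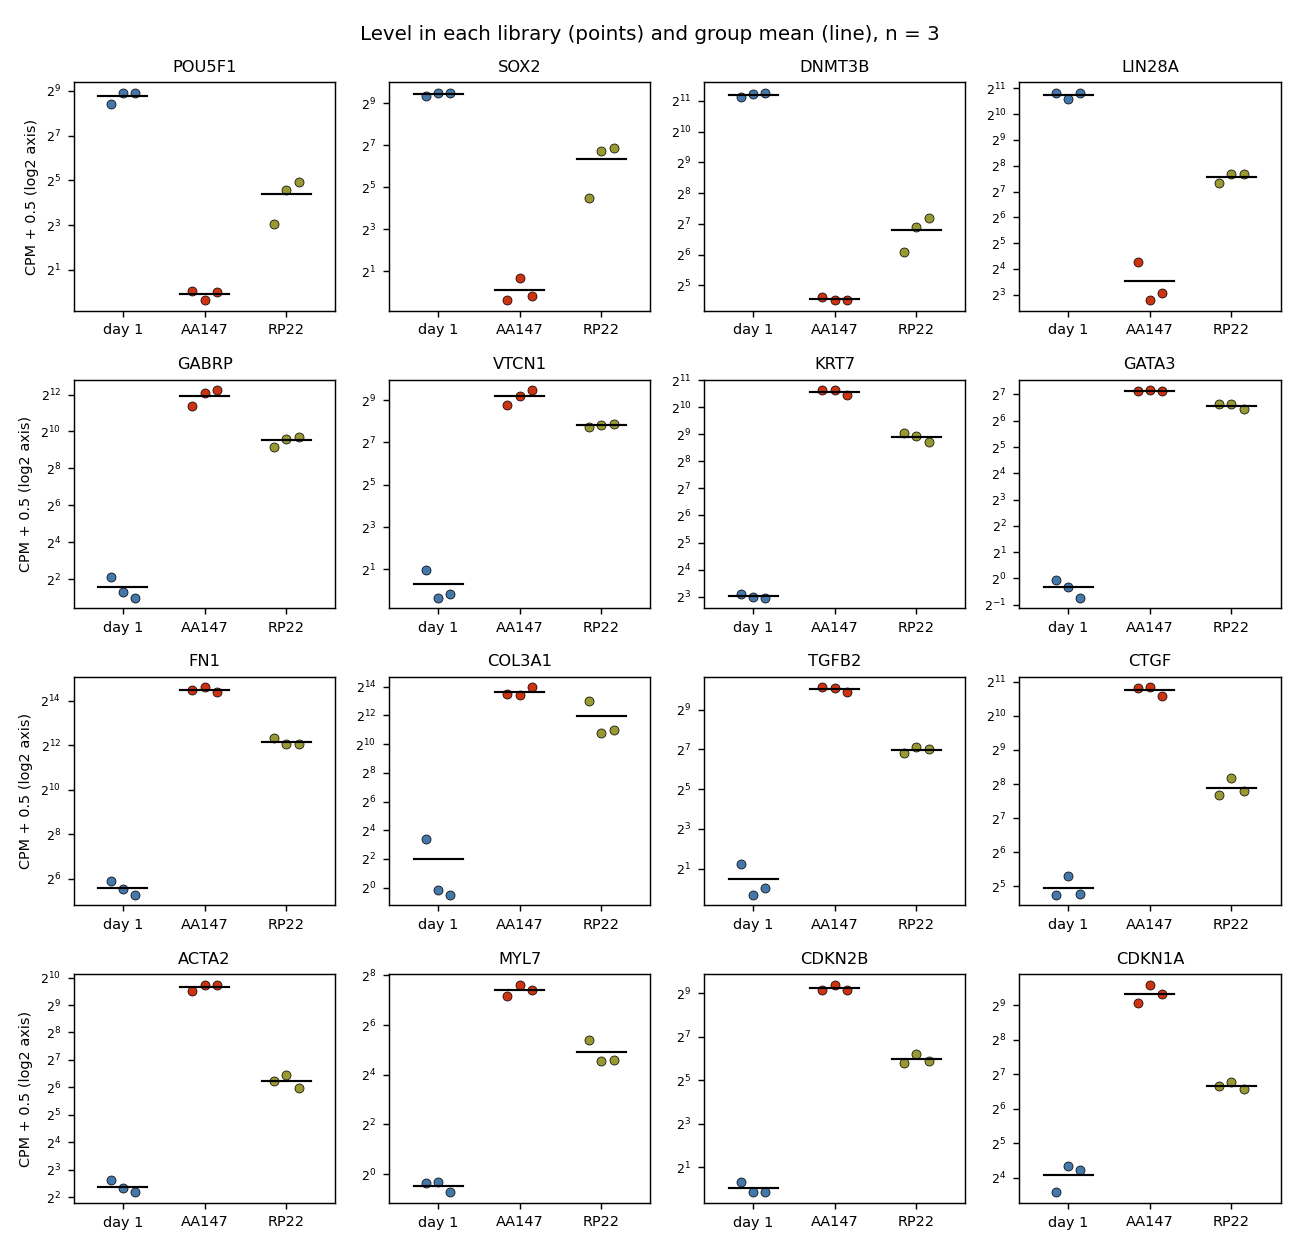
CPM + 0.5 (vertical axes, log2 scale) of 16 genes in each library (points), with the mean of the 3 libraries as a line, for day 1, AA147 and RP22. The pluripotency genes in the top row are lowest with AA147, and the remaining genes are highest with AA147; RP22 lies between day 1 and AA147 in every panel, and for COL3A1 its replicate 1 is the nearest to AA147.

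Collagens and other matrix genes gave the highest levels of the AA147 libraries. Scaled to gene length as RPKM, the 7 highest were FN1 (mean 3745), TPM1 (2093), COL1A1 (1965), COL3A1 (1858), COL1A2 (1636), COL4A1 (1438) and COL4A2 (1170.4). At day 1 the 3 highest were HMGA1 (1242), HSPA8 (1068) and RPL8 (1027). Of 12 fibrillar and associated collagens 9 rose and 2 fell (median 5.77). Against RP22 5 were higher and 2 lower, or 5 and 5 with library totals alone. The median log2 difference from RP22 was 0.43, or −0.11 with library totals alone. Their summed level was 46904 to 57390.5 CPM with AA147, 699 to 792 CPM at day 1 and 10006 to 28380 CPM with RP22.

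COL1A1, the main chain of type I collagen, was at 190.2, 158 and 182 CPM at day 1, 16434, 10830.5 and 13692 CPM with AA147 and 5637, 2041 and 2139 CPM with RP22 (log2 fold change 6.27, SE 0.19, adjusted p = 3.76e-09 against day 1). RP22 replicate 1 was above the other RP22 libraries, and the difference between the compounds was 2.06 (adjusted p = 0.00951). COL3A1 was at 9.96, 0.390 and 0.199 CPM at day 1 and 11503, 11211 and 15765 CPM with AA147 (log2 fold change 11.79, SE 1.11, adjusted p = 2.61e-04). Day 1 replicate 1 held nearly all day 1 reads of COL3A1, and without it the log2 fold change was 15.34. The compounds did not differ past the threshold in COL3A1 (RP22 at 8108, 1731 and 2004 CPM, log2 difference 1.70, 95% interval −0.05 to 3.45, adjusted p = 0.0814).

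COL5A1, which starts collagen fibrils, went from 45.2, 18.7 and 21.5 to 10008, 9596 and 9801 CPM (log2 fold change 8.42, SE 0.40, adjusted p = 1.78e-06). COL12A1, which coats fibrils, went from 9.59, 11.2 and 10.7 to 2124, 2846 and 3113 CPM, and with RP22 it was at 362, 402 and 412 CPM (log2 difference 2.78, adjusted p = 5.73e-06). Type VI collagen behaved differently from these. COL6A1 was at 244, 268 and 255 CPM at day 1, 163, 39.5 and 54.9 CPM with AA147 and 1051, 338 and 408 CPM with RP22; its log2 fold change of −1.57 (adjusted p = 0.0478) lost the call in 7 of 15 alternative settings, with adjusted p up to 0.134, and was −2.43 without AA147 replicate 1. COL6A3 rose, from 3.91, 4.09 and 4.29 to 326, 52.2 and 97.6 CPM, with AA147 replicate 1 far above the others (4.19 without it, 5.27 with it). The mean level of COL6A3 was 901 CPM with RP22, above the mean of 159 CPM with AA147.

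The sheet-forming collagens of basement membranes rose as well. COL4A1 went from 127, 133 and 138 to 11563, 12342 and 11496 CPM (log2 fold change 6.47, SE 0.11, adjusted p = 1.92e-10), and RP22 was at 1889, 1578 and 1569.6 CPM (log2 difference 2.81, adjusted p = 2.30e-06). Of 19 type IV collagen and laminin genes, 17 rose and 1 fell, 12 were higher and 4 lower than with RP22. LAMB1 rose from 106, 61.9 and 61.5 to 1614, 1641 and 1622 CPM and LAMC1, its partner in laminin trimers, from 327, 308 and 292 to 1387, 1639.5 and 1577 CPM. COL4A4, a chain of kidney and cochlear basement membranes, rose from 1.40, 0.975 and 1.196 to 92.7, 157 and 129 CPM while RP22 stayed at 3.99, 4.62 and 5.23 CPM (log2 difference 4.76, adjusted p = 9.43e-06).

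FN1 (fibronectin) was at 60.0, 46.9 and 38.2 CPM at day 1, 23189.6, 24757 and 21551 CPM with AA147 and 5156, 4272 and 4307 CPM with RP22 (log2 fold change 8.90, SE 0.21, adjusted p = 7.73e-10 against day 1). AA147 lay above RP22 in all libraries (log2 difference 2.34, adjusted p = 6.39e-06). Of 19 genes for fibronectin, fibrillins and matricellular proteins 15 rose and 2 fell (median 5.38). TGFBI, a TGF-beta induced adhesion protein, rose from 7.82, 7.50 and 4.69 to 2657, 4092 and 4189 CPM, TNC (tenascin C) from 11.8, 5.36 and 6.98 to 3053, 4039.8 and 5003 CPM and SPARC from 109, 99.3 and 93.4 to 4350.2, 4331 and 3879 CPM. With RP22 TGFBI was at 211, 239 and 269 CPM, TNC at 331, 414 and 406 CPM and SPARC at 1365, 694 and 722 CPM, all between the other groups. DCN (decorin) rose from 1 read at day 1 to 124, 56.1 and 89.2 CPM and did not differ from RP22 past the threshold (95% interval of the log2 difference −3.60 to 1.59).

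The enzymes that fold and crosslink collagen rose with it, 15 of 17 tested against 1 that fell (median 2.37). P4HB, the isomerase subunit of prolyl hydroxylase, was at 367, 398 and 399 CPM at day 1, 1746, 1876 and 1857 CPM with AA147 and 751, 554 and 583 CPM with RP22 (log2 fold change 2.24, SE 0.082, adjusted p = 9.13e-09). SERPINH1 (HSP47), the collagen chaperone of the ER, was at 279.7, 375 and 380.0 CPM at day 1, 1374, 1123 and 1152 CPM with AA147 and 665, 407 and 438 CPM with RP22 (log2 fold change 1.82, SE 0.14, adjusted p = 1.44e-06). AA147 exceeded RP22 in both (1.54 and 1.27). LOXL2, which crosslinks collagen, rose from 35.0, 24.0 and 24.1 to 991, 988 and 985 CPM, and BMP1, which trims procollagen, from 7.82, 4.58 and 6.08 to 619.6, 505 and 473 CPM. LOXL1 rose by 4.01 (SE 0.44), but the compounds were not told apart (−0.97 to 1.73, 95% interval of the log2 difference).

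Integrins, the receptors for this matrix, rose in 12 of 15 tested genes and fell in 2 (median 3.86). ITGB1, the most shared beta subunit, was at 277, 296 and 287 CPM at day 1 and 4113, 4497 and 3872 CPM with AA147 (log2 fold change 3.86, SE 0.098, adjusted p = 1.08e-09), and ITGAV at 84.8, 75.2 and 75.0 CPM at day 1 and 2612, 2762 and 2588 CPM with AA147 (log2 fold change 5.08, SE 0.099, adjusted p = 3.01e-10). ITGA5, which pairs with ITGB1 to bind fibronectin, rose by 4.41. ITGA6, a laminin receptor subunit known to be high in stem cells, fell by 0.48 (adjusted p = 0.0151), a call lost in 2 alternative settings (adjusted p up to 0.107).

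Matrix proteases and their inhibitors rose in 15 of 16 tested genes and fell in 1. MMP2 went from 26.1, 30.8 and 27.3 to 2138, 2198 and 2094 CPM and MMP14, its membrane-bound activator, from 44.1, 36.0 and 42.0 to 2102, 2219 and 2022 CPM. TIMP3, an inhibitor of both, went from 3.72, 5.36 and 4.59 to 1615, 2260.3 and 1626 CPM (log2 fold change 8.65, SE 0.21, adjusted p = 2.34e-09). PLAU (urokinase) rose from day 1 by 2.55 and stood at 171, 103 and 87.3 CPM with AA147 and 149.8, 124 and 139 CPM with RP22, which overlapped (95% interval of the log2 difference −0.82 to 0.44).

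The TGF-beta pathway rose in 12 of 14 genes, with none falling (median 3.84), and 11 of 14 were higher than with RP22 and 1 lower. TGFB2 was the ligand with the largest change, from 1.86, 0.292 and 0.498 to 1107, 1102 and 947 CPM (log2 fold change 10.17, SE 0.32, adjusted p = 4.20e-08), with 112, 137 and 129 CPM in RP22 (log2 difference 3.06, adjusted p = 1.28e-06); without day 1 replicate 1 its log2 fold change was 11.33. The receptor genes TGFBR1 and TGFBR2 rose by 2.75 and 4.16. PMEPA1, a known target of the pathway, rose from 10.8, 8.67 and 10.2 to 279, 344 and 315 CPM.

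Targets of YAP and TEAD respond to cell spreading and stiffness. In their list, which also holds YAP1 and TEAD1, 14 of 16 genes rose and 2 fell (median 2.80). CTGF was at 26.2, 38.7 and 26.8 CPM at day 1, 1818, 1824 and 1528 CPM with AA147 and 203, 288 and 221 CPM with RP22 (log2 fold change 5.82, SE 0.18, adjusted p = 7.35e-09), and CYR61 at 45.0, 94.2 and 47.6 CPM at day 1, 1274, 1567 and 1534 CPM with AA147 and 215, 284 and 227 CPM with RP22 (log2 fold change 4.55, SE 0.33, adjusted p = 1.85e-05). Relative to RP22 14 were higher and none lower, or 11 higher and 2 lower with library totals alone. ANKRD1 rose from 12 reads at day 1 to 968, 1394 and 1245 CPM, with 11 of those reads in replicate 1. YAP1 itself rose by 0.64 and was at 390.2, 369 and 343 CPM with RP22 against 317, 337 and 327 CPM with AA147.

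In the BMP pathway the ID genes, which BMP signals are known to induce, moved apart: ID1 fell from 226, 194 and 240.3 to 14.4, 7.48 and 11.9 CPM (log2 fold change −4.28, SE 0.20, adjusted p = 1.74e-07) and ID2 from 99.1, 44.2 and 54.0 to 11.4, 3.88 and 8.23 CPM, while ID3 rose by 0.52, a call that library totals alone removed. With RP22 ID1 was at 68.2, 62.6 and 62.9 CPM and ID2 at 82.3, 90.9 and 77.2 CPM. BAMBI, a decoy receptor, rose from 12.01, 11.8 and 10.8 to 402, 439 and 495 CPM (log2 fold change 5.27, SE 0.11, adjusted p = 4.35e-10) and NOG (noggin), a secreted inhibitor, from 7 day 1 reads to 35.5, 33.8 and 40.4 CPM. BMP5 had 0 day 1 reads and was at least 128-fold higher with AA147. Over the list, 6 of 15 rose and 4 fell.

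WNT genes rose in 11 of 17 and fell in 2 (median 3.18), and against RP22 5 were higher and 7 lower. WNT5A, a noncanonical ligand, went from 29.4, 20.2 and 25.3 to 367, 337 and 268 CPM, and DKK3 from 16.01, 13.7 and 14.5 to 634, 756 and 653 CPM (log2 fold change 5.53, SE 0.11, adjusted p = 3.43e-10). LGR5, the R-spondin receptor, went from 3 day 1 reads to 31.3, 53.5 and 62.5 CPM and did not differ past the threshold from RP22, at 25.7, 31.4 and 36.1 CPM (95% interval 0.01 to 1.31). RSPO3, its ligand, had 0 day 1 reads, 9.30, 11.5 and 22.5 CPM with AA147 and 45.3, 77.6 and 83.2 CPM with RP22, and was lower than with RP22 (log2 difference −2.25, adjusted p = 0.00465).

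In the IGF axis 9 of 10 genes rose and 1 fell. IGF2 was at 6.24, 4.48 and 4.09 CPM at day 1, 3928, 3476 and 3917 CPM with AA147 and 5231, 2578 and 2684 CPM with RP22 (log2 fold change 9.57, SE 0.17, adjusted p = 2.10e-10). Its AA147 and RP22 libraries overlapped, with a 95% interval of −0.56 to 0.78 for the log2 difference. IGFBP3, which binds IGFs in serum, rose from 295, 151 and 228 to 2217, 3478 and 2995 CPM (log2 fold change 3.69, SE 0.30, adjusted p = 2.80e-05), with 443, 448 and 438 CPM in RP22. IGF1R, the receptor, rose by 2.41.

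Markers of amnion and early trophectoderm gave the highest median of all lists with 5 or more tested members (7.64), 9 of 11 tested rising and none falling. GABRP, a GABA receptor subunit used as an amnion marker, was at 3.91, 1.95 and 1.495 CPM at day 1, 2615, 4336 and 4835 CPM with AA147 and 578, 783 and 826 CPM with RP22 (log2 fold change 10.62, SE 0.43, adjusted p = 7.31e-07 against day 1; log2 difference 2.43, adjusted p = 2.37e-04 against RP22). VTCN1, a B7 family protein found in these tissues, was at 1.49, 0.292 and 0.399 CPM at day 1, 440.2, 588 and 709.9 CPM with AA147 and 215, 229 and 235 CPM with RP22 (log2 fold change 9.59, SE 0.39, adjusted p = 4.57e-07, or 10.65 without day 1 replicate 1). GATA3, a trophectoderm factor, was at 0.465, 0.292 and 0.0997 CPM at day 1, 138, 143 and 139.9 CPM with AA147 and 98.1, 100.3 and 86.7 CPM with RP22 (log2 fold change 8.85, SE 0.19, adjusted p = 4.35e-10), and its difference from RP22 of 0.56 was 0.02 with library totals alone.

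TFAP2C and GATA2 were not called. TFAP2C was at 50.03, 60.5 and 52.7 CPM after 70.6, 40.3 and 49.0 CPM (log2 fold change 0.03, 95% interval −0.43 to 0.48), although it rose without day 1 replicate 1 (0.29, adjusted p = 0.0431), and GATA2 was at 12.8, 7.07 and 5.70 CPM after 13.5, 6.43 and 7.58 CPM. TFAP2A rose from 35.0, 1.27 and 3.29 to 141, 128 and 118 CPM, but day 1 replicate 1 was far above its group: the call (adjusted p = 0.0347) was lost in 7 of 15 alternative settings, with adjusted p up to 0.0852, and the log2 fold change was 5.82 without that library. Summed over the list, levels were 58.7 to 138 CPM at day 1, 5434 to 7879 CPM with AA147 and 2124 to 2159.9 CPM with RP22. The largest parts of the AA147 sum were GABRP (mean 3929 CPM) and KRT7 (mean 1523 CPM). Of 12 members tested against RP22, 5 were higher and 3 lower, with a median log2 difference of 0.32. With library totals alone 4 were higher and 5 lower, with a median of −0.22.

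Hormone and steroid genes of the trophoblast rose in all 7 tested members of 11, but 5 of the 7 were lower than with RP22 and 1 was higher. All 11 members were tested against RP22, and 9 were lower and 1 was higher. CGA, the alpha chain of chorionic gonadotropin, had 1 day 1 read, 11.3, 12.2 and 63.8 CPM with AA147 and 218, 395 and 325 CPM with RP22 (log2 difference −3.42, adjusted p = 0.0168 against RP22). AA147 replicate 3 held most of its reads; the rise lost its call in 2 alternative settings (adjusted p up to 0.0726). CYP19A1 (aromatase) had 5 day 1 reads, 5.76, 4.71 and 5.82 CPM with AA147 and 40.5, 35.7 and 42.0 CPM with RP22 (log2 difference −2.85, adjusted p = 2.86e-06). CYP11A1, which starts steroid synthesis, rose least of the 7 (log2 fold change 0.67, adjusted p = 0.0261), a call lost in 8 of 15 alternative settings (adjusted p up to 0.384). HSD3B1 was the member higher than with RP22, at 159, 229 and 144 CPM with AA147 and 33.2, 86.1 and 65.3 CPM with RP22 (log2 difference 1.53, adjusted p = 0.0192). CGB5 and CGB8 are near-identical copies and share reads.

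All 10 tested members of the keratin list, which also holds the transcription factor TP63, rose (median 7.14, or 6.47 with bounds). KRT8 and KRT18, the pair of simple epithelia, went from 143, 149 and 152 to 2485, 2635 and 2711 CPM (log2 fold change 4.14, SE 0.089, adjusted p = 4.32e-10) and from 101, 174 and 151 to 1986, 2048 and 2014 CPM (log2 fold change 3.83, SE 0.19, adjusted p = 3.45e-07). KRT7 went from 8.10, 7.50 and 7.28 to 1588, 1591 and 1391 CPM (log2 fold change 7.64, SE 0.12, adjusted p = 1.92e-10). KRT17, a keratin of stratified epithelium, went from 0.279, 0.390 and 0.498 to 269, 250.2 and 210.0 CPM (log2 fold change 9.25, SE 0.19, adjusted p = 3.43e-10). KRT14, of the basal layer, had 0 day 1 reads and was at 13.4, 4.99 and 4.43 CPM with AA147, at least 78.7-fold higher, or 48.6-fold without AA147 replicate 1. KRT5, the partner of KRT14, had 1 read at day 1 and 10.2, 1.39 and 2.15 CPM with AA147, and TP63, their regulator, 1 read and 28.0, 11.1 and 10.8 CPM. AA147 replicate 1 was the highest library for KRT14, KRT5 and TP63. Against RP22 5 of 10 were higher and none lower, or 5 and 5 of the 11 tested against RP22 with library totals alone.

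Among genes of epithelial and mesenchymal adhesion and their regulators, 10 of 15 tested rose and 3 fell. CDH1 (E-cadherin) was at 592, 431 and 499 CPM at day 1 and 1004, 1013 and 938 CPM with AA147 (log2 fold change 0.96, SE 0.11, adjusted p = 2.92e-05), CDH2 (N-cadherin) at 37.0, 29.6 and 24.2 CPM at day 1 and 450.0, 499 and 464 CPM with AA147 (log2 fold change 3.96, SE 0.14, adjusted p = 1.67e-08), and VIM (vimentin) at 351, 436 and 351 CPM at day 1 and 1945, 1716 and 1598 CPM with AA147 (log2 fold change 2.21, SE 0.12, adjusted p = 9.83e-08). SNAI2 (Slug) went from 7 reads at day 1 to 245, 258 and 238 CPM (log2 fold change 10.01, SE 0.18, adjusted p = 2.46e-10, or 10.62 without day 1 replicate 3), while SNAI1 (Snail) fell from 5.96, 4.68 and 4.49 to 1.57, 0.554 and 0.380 CPM. The SE of SNAI2, as of other genes with few reads in a group, can be smaller than its counting error. EPCAM was not called (log2 fold change 0.03, 95% interval −0.34 to 0.41, or −0.41 with library totals alone).

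Contractile genes of smooth muscle rose in 14 of 15 members, with none falling (median 3.65), and 12 were higher than with RP22, or 10 with library totals alone. ACTA2 (smooth muscle actin) was at 5.58, 4.48 and 3.99 CPM at day 1, 732, 842 and 853 CPM with AA147 and 73.7, 87.5 and 62.3 CPM with RP22 (log2 fold change 7.42, SE 0.14, adjusted p = 2.50e-10). TAGLN (SM22) was at 67.8, 87.7 and 73.0 CPM at day 1, 2018, 2272 and 2242 CPM with AA147 and 279, 329 and 254 CPM with RP22 (log2 fold change 4.84, SE 0.12, adjusted p = 1.16e-09), and TPM1 (tropomyosin) at 359.8, 292 and 304 CPM at day 1, 3614, 4631 and 4643 CPM with AA147 and 800.0, 1005 and 901 CPM with RP22.

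Of 17 cardiomyocyte genes 12 were tested, 8 rose and 1 fell. ACTC1, cardiac actin, was at 17.6, 28.1 and 21.4 CPM at day 1, 2461, 2685 and 2798 CPM with AA147 and 313, 513 and 395 CPM with RP22 (log2 fold change 6.89, SE 0.18, adjusted p = 2.17e-09), and MYL7, the atrial light chain, went from 7 reads to 145, 196 and 168 CPM (log2 fold change 9.47, SE 0.24, adjusted p = 9.94e-10). NPPB, the natriuretic peptide gene, went from 10 reads to 135, 139.9 and 133 CPM. Of the light chain genes with 0 day 1 reads, MYL2 was at 1.44, 2.77 and 1.77 CPM with AA147, at least 20.5-fold higher, and MYL4 at 12.6, 3.19 and 1.65 CPM, at least 60.0-fold higher, or 24.6-fold without AA147 replicate 1; the call of MYL4 was lost in 1 alternative setting (adjusted p = 0.051). MYH6 had 2 reads at day 1 and 1 with AA147 (485 with RP22), MYH7 1 and 0, and ACTN2 55 and 21; NKX2-5 had 0 and 4. TNNT2 rose from 3.91, 2.83 and 3.09 to 51.6, 58.5 and 56.4 CPM, TTN was not called (log2 fold change −0.09, 95% interval −0.37 to 0.19) but fell with library totals alone (−0.53), and TNNI3 fell from 5.68, 5.36 and 5.78 CPM to 1 read. Actin genes are similar in sequence, so that reads may be shared among ACTC1, ACTA2 and ACTA1.

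In the lateral plate and cardiac list, of transcription factors and the receptor PDGFRA, 5 of 7 tested members of 14 rose. Of the 7, none was higher and 4 were lower than with RP22. Of 13 members tested against RP22, 10 were lower and none was higher. HAND1 was at 3.91, 0.390 and 0.598 CPM at day 1, 189, 251 and 328 CPM with AA147 and 284, 118 and 112 CPM with RP22 (log2 fold change 7.25, SE 0.59, adjusted p = 7.21e-05; 8.98 without day 1 replicate 1). TBX3 was at 0.279, 0.292 and 0.299 CPM at day 1, 47.2, 47.4 and 52.3 CPM with AA147 and 139, 97.5 and 89.9 CPM with RP22 and was lower than with RP22 (log2 difference −1.15, adjusted p = 7.36e-04). GATA6 and ISL1 rose (6.34 and 6.25; ISL1 was at 7.08 without day 1 replicate 1) and did not differ from RP22 past the threshold, with 95% intervals of −1.47 to 0.26 and −0.81 to 0.63. In the paraxial and intermediate mesoderm list 5 of 6 tested genes rose, among them FOXC1 (22.9, 26.6 and 24.3 CPM after 9 day 1 reads) and MEOX1 (17.6, 14.96 and 11.9 CPM after 2), and SALL1 fell from 257, 115 and 165 to 7.86, 7.20 and 4.94 CPM.

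Of 39 HOX genes 5 could be tested and all 5 rose, among them HOXA3, HOXB2, HOXB3 and HOXB4, which lie near the 3′ end of their clusters. HOXB2 went from 2 reads to 23.6, 26.6 and 33.8 CPM. HOXC8 had 0 reads at day 1 and its 55 AA147 reads all in replicate 1. Summed over the clusters, HOX levels were 0.299 to 2.05 CPM at day 1, 50.8 to 76.9 CPM with AA147 and 81.3 to 239.6 CPM with RP22.

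Neural progenitor genes fell: of 6 tested members of 14, 5 fell and none rose, and 5 were lower than with RP22. Of 10 members tested against RP22, 8 were lower and none was higher. OTX2, a forebrain factor also active in stem cells, was at 152, 82.2 and 108 CPM at day 1, 0.524, 0 and 0.127 CPM with AA147 and 27.4, 75.6 and 73.8 CPM with RP22 (log2 fold change −8.93, SE 0.51, adjusted p = 2.63e-06, or −10.48 without AA147 replicate 1). ZIC2 was at 195, 135 and 158 CPM at day 1, 0.393, 0.416 and 0 CPM with AA147 and 32.1, 90.5 and 82.9 CPM with RP22. PAX6 was at 1.12, 1.07 and 2.49 CPM at day 1 and 2.23, 2.49 and 1.52 CPM with AA147, which the test did not call, and at 37.9, 113 and 92.5 CPM with RP22 (log2 difference −5.29, adjusted p = 7.72e-04). EMX2 had 0 reads at day 1 and with AA147 and 2831 with RP22. The list summed to 247 to 372 CPM at day 1, 13.99 to 16.96 CPM with AA147 and 180.3 to 643 CPM with RP22.

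Of 12 neuron genes 7 were tested, of which 1 rose, 2 fell and 4 were not called, and the list summed to 531 to 562 CPM with AA147, 328 to 360.1 CPM at day 1 and 1136 to 1417 CPM with RP22. DCX, a microtubule protein of young neurons, fell from 8.56, 6.34 and 9.07 to 1.57, 1.66 and 0.380 CPM and stood at 201, 209 and 216 CPM with RP22 (log2 difference −7.44, adjusted p = 2.17e-06). NEUROD1 had 0 reads in both groups of the comparison and 1605 with RP22. TUBB3 was the only tested member that rose, from 160.0, 145 and 160.2 to 416, 442 and 464 CPM; its difference from RP22 of 0.45 was −0.10 with library totals alone. Of 10 tested neural crest genes 6 fell and 4 rose. SOX10, which defines migrating crest and glia, went from 3.63, 3.22 and 3.29 CPM to 1 read and was at 120.0, 44.1 and 40.2 CPM with RP22. The genes that rose, SNAI2, SOX9, TFAP2A and TFAP2B, are also expressed outside the crest.

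Most listed markers of endothelium, blood, liver and endoderm had too few reads to be tested. Among 13 endothelial genes 4 were tested, 3 fell and none rose, and they summed to 19.4 to 85.9 CPM with AA147, 156 to 189 CPM at day 1 and 130.1 to 316 CPM with RP22. PECAM1 and EMCN had 0 reads in both groups, SOX18 had 0 with AA147, and CDH5 had 2 reads at day 1, 23 with AA147 and 435 with RP22. KDR fell from 30.8, 51.5 and 51.3 to 14.8, 2.63 and 7.34 CPM, with AA147 replicate 1 the highest (−2.42, or −3.13 without it). FLT1, a VEGF receptor, was at 60.0, 11.4 and 10.0 CPM with AA147, and its fall (−2.10, adjusted p = 0.0439) lost the call in 7 of 15 alternative settings, with adjusted p up to 0.115, and was −3.45 without AA147 replicate 1.

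Of 13 blood genes 3 were tested: RUNX1 rose from 0.465, 0.877 and 0.798 to 142, 128 and 135 CPM (log2 fold change 7.54, SE 0.16, adjusted p = 3.45e-10), MYB fell (−5.72, or −6.82 without AA147 replicate 1) and GATA2 was not called. RUNX1 is also expressed outside blood, and GATA1, TAL1, PTPRC, CD34 and SPI1 had 0 reads with AA147. Among 12 liver and yolk sac genes AFP, APOB and APOE were tested and fell, APOE from 695, 799.8 and 815 to 195, 175 and 160.1 CPM (log2 fold change −2.12, SE 0.10, adjusted p = 5.24e-08). APOA1 had 3 reads at day 1, 6 with AA147 and 1540 with RP22, and TTR 0, 0 and 122. Of 13 endoderm genes 5 were tested, with 2 rises (GATA6, at 32.4, 30.3 and 27.0 CPM with AA147, and CDX1) and 3 falls (SOX2, FOXA3 and CXCR4); FOXA2 had 5 day 1 reads and 0 with AA147. Of 9 skeletal muscle genes 3 were tested. ACTA1, skeletal actin, rose by 1.13 (adjusted p = 0.0478), a call lost in 10 of 15 alternative settings, and DES (desmin), which all muscle types express, by 1.18, lost in 5 (adjusted p up to 0.0982). MYH3, the embryonic myosin, fell (−1.75, adjusted p = 5.45e-04), and MYOD1, MYOG, MYF5 and PAX7 had 0 reads with AA147.

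**Figure D5:**
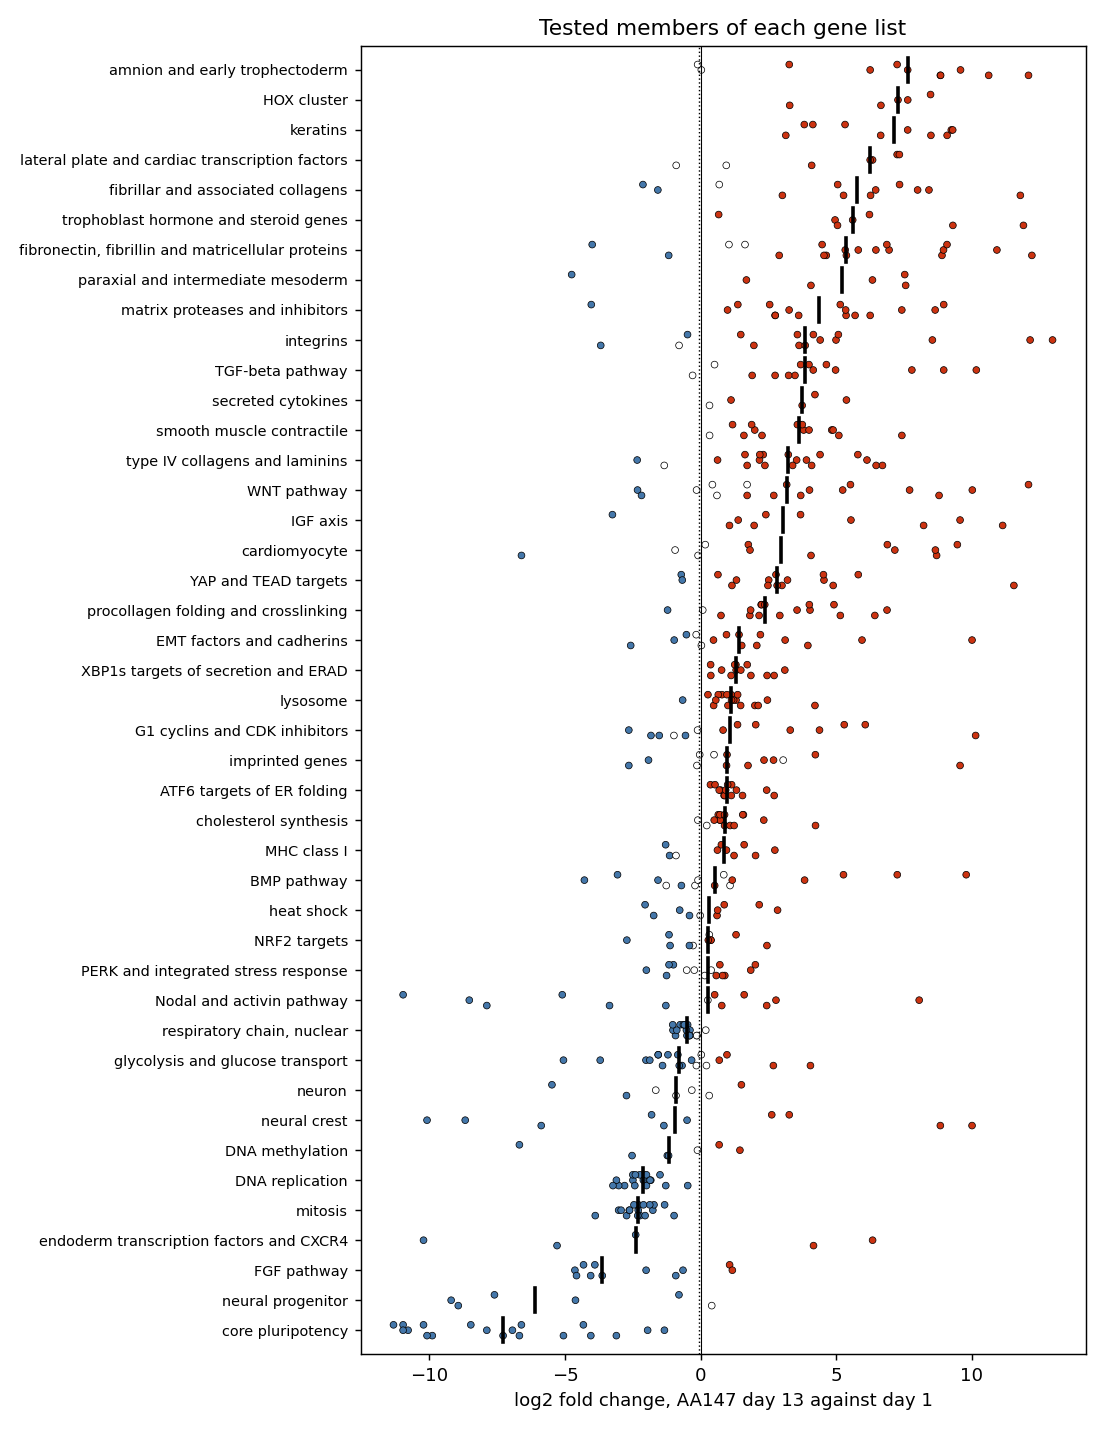
Log2 fold change of AA147 at day 13 against day 1 (horizontal axis) for the tested members of selected gene lists. Each list drawn has at least 5 tested members. Red points rose, blue points fell and open points were not called. A bar marks the list's median and a dotted line the median of all genes, −0.04. Genes with 0 reads in a group are drawn at their fitted value; the medians run from −7.28 for core pluripotency to 7.64 for amnion and early trophectoderm.

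Among 13 tested imprinted genes 7 rose and 2 fell. MEST rose from 184, 209 and 228 to 1151, 1073 and 919 CPM (log2 fold change 2.34, SE 0.11, adjusted p = 5.81e-08). PEG10 was not called, with AA147 libraries at 252, 112 and 103 CPM and day 1 libraries at 194, 155 and 163 CPM, but fell without AA147 replicate 1 (−0.67, adjusted p = 4.71e-04). SNRPN fell by 1.92, and its reads cannot be told from those of the overlapping SNURF.

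Of 19 glycolysis genes 12 fell and 4 rose. ENO1 fell from 1613, 1776 and 1765 to 701, 639 and 612 CPM (log2 fold change −1.40, SE 0.087, adjusted p = 2.95e-07) and LDHB from 1111, 1053 and 1169 to 300.3, 319 and 292 CPM (log2 fold change −1.87, SE 0.081, adjusted p = 2.72e-08). The transporter SLC2A3 (GLUT3) went the other way, from 156, 229 and 223 to 3283, 3323 and 3492 CPM (log2 fold change 4.05, SE 0.15, adjusted p = 1.62e-08), and PFKP, a phosphofructokinase, rose by 2.69. Of 19 nuclear genes of the respiratory chain 16 fell and none rose (median −0.50), such as ATP5B, from 864, 928 and 951 to 413, 458 and 477 CPM. Relative to RP22 the direction of this list depended on the scaling, with 12 higher and none lower in the test but none higher and 14 lower with library totals alone.

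Cholesterol synthesis genes rose in 13 of 15 (median 0.89). INSIG1, which holds back the activation of this pathway, rose from 13.2, 6.14 and 7.68 to 37.2, 50.7 and 48.9 CPM (log2 fold change 2.33, SE 0.27, adjusted p = 6.40e-05), and SQLE, a rate-limiting enzyme, by 1.58. With RP22 INSIG1 was at 32.2, 23.2 and 32.7 CPM. Of 15, 12 were higher than with RP22, but 2 higher and 3 lower with library totals alone.

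Lysosomal genes rose in 17 of 18 and fell in 1 (median 1.14). CTSB (cathepsin B) was at 66.4, 71.7 and 75.3 CPM at day 1, 1262, 1292 and 1419 CPM with AA147 and 578, 483 and 503 CPM with RP22 (log2 fold change 4.22, SE 0.096, adjusted p = 5.82e-10), and LAMP2, a membrane protein of lysosomes, rose by 2.47. CTSD (cathepsin D) was the member that fell, from 332, 365 and 355 to 238, 225 and 204 CPM (log2 fold change −0.66, SE 0.082, adjusted p = 4.15e-05). Against RP22 16 were higher and none lower, or 9 higher and 3 lower with library totals alone.

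Of 10 genes of MHC class I presentation 7 rose and 2 fell. TAPBP (tapasin), which loads peptides in the ER, rose from 30.5, 31.7 and 35.4 to 220.4, 219 and 213 CPM (log2 fold change 2.74, SE 0.085, adjusted p = 3.34e-09) and TAP1 from 25.1, 24.9 and 23.5 to 65.9, 80.5 and 78.0 CPM (log2 fold change 1.61, SE 0.10, adjusted p = 3.47e-07), while TAP1 was at 13.5, 16.8 and 13.5 CPM with RP22 (log2 difference 2.35, adjusted p = 4.95e-06). HLA-E rose by 2.03; HLA genes are similar and polymorphic, so that reads may be assigned to the wrong one. Of 11 secreted cytokines 5 were tested and 4 rose. LIF, a cytokine of the IL-6 family, went from 4.65, 4.97 and 4.39 to 94.2, 86.9 and 80.6 CPM (log2 fold change 4.22, SE 0.12, adjusted p = 1.61e-09) and IL11 from 6.24, 4.19 and 4.89 to 76.4, 66.2 and 64.0 CPM (log2 fold change 3.75, SE 0.15, adjusted p = 1.59e-08). With RP22 LIF was at 18.1, 11.9 and 13.5 CPM and IL11 at 12.1, 7.24 and 8.39 CPM. CXCL12 was not called against day 1 but was at 132, 133 and 186 CPM with AA147 and 29.3, 19.8 and 22.8 CPM with RP22 (log2 difference 2.65, adjusted p = 4.27e-05).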

How the data were processed

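Total RNA of HUES9 cells was sequenced in 9 libraries, 3 per group, and 6 of them enter the main comparison. The authors deposited estimated counts per gene (27772 rows, 42 of them second rows of a symbol, which were summed), in which 0.05 stands for 0 reads in 41.4% of cells and 0.914% of cells are fractions. They also deposited RPKM values, which were used here only to compare levels between genes. Per the submitters' processing notes the build is GRCh37.p13. How reads were aligned, counted and assigned to strands was not given in the sources used here. Counts were rounded to whole numbers.

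Genes were filtered with filterByExpr within the 6 libraries of a comparison, TMM factors were computed from all 9, and edgeR 4.0.16 (R 4.3.3; robust quasi-likelihood fit, no covariate, Benjamini-Hochberg threshold 0.05) gave the tests. On simulated data for this comparison, 50 of 13761 genes were changed by each fold. The test recovered 40% of 1.5-fold, 70% of 2-fold, 92% of 4-fold and 100% of 8-fold changes, with 14 false calls. Far fewer genes changed there than the 79% called in the real data. The adjusted threshold is therefore not the same, and these rates do not give the power of the real test. Where a group had 0 reads, folds are bounds against 3 reads over the group (0.0967 CPM at day 1, 0.132 CPM with AA147), and with 1 to 3 reads ratios have exact 95% intervals; both cover counting error only. Libraries of 9223027 to 10118258 reads set the depth.

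The 49 gene lists (702 genes) and the comparison were chosen with earlier results of these data known. Named genes are the 15 largest rises and falls among called genes that did not overlap between groups and had a mean of 10 CPM or more in 1 of them, for each list the 6 called members of largest change and 3 more of highest level, the 10 genes with the most reads per group, and 10 fixed genes. Members that were not called, and genes singled out for a motif, are named with their values. The alternatives tried were DESeq2 (1.42.0) size factors, library totals alone, TMM from 6 libraries, DESeq2's Wald test, limma-voom (limma 3.58.1), no filter, a replicate block, a common fit of all 9 libraries, each library left out and replicate 1 left out of both groups.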

Additional observations from a re-analysis of the deposited data

How the results depend on the processing

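Against day 1, the counts of genes that rose or fell stayed within 1.5 times of 5331 and 5546 in every alternative run, with each library left out giving 5105 to 5446 and 5241 to 5569; at least 2-fold they gave 3292 to 3393 (3294 with all) and 2934 to 3136 (2950). DESeq2 called 10453 genes, limma-voom 10915 and the fit without a filter 11564 of 17692, against 10877. Of these 10877 calls, 10191 to 10871 kept their direction and threshold in the alternatives other than library totals alone. With library totals alone 9413 did and 54 turned. That setting moved the genes that fell at least 2-fold to 4528, and against RP22 it gave 1900 higher and 8515 lower genes, 570 and 3792 of them at least 2-fold (main values 4931, 4006, 1433 and 2406). Leaving out each library gave 4288 to 5137 higher and 3379 to 4390 lower than RP22, and at least 2-fold 1335 to 1648 and 2267 to 2734. With library totals alone the median log2 fold change turned for the Nodal and activin list (−0.17), the PERK list (−0.17), the heat shock list (−0.14) and the NRF2 list (−0.15), as did HYOU1 (−0.076), FTH1 (−0.15), TXNRD1 (−0.064), EPCAM (−0.41) and PKM (−0.41); this setting shifts all genes by the same amount. The median of the blood list, over 3 genes, was −0.11 and ran from −0.53 (without AA147 replicate 1) to 0.28 (without day 1 replicate 1), with 0.01 and 0.12 without AA147 replicates 2 and 3, and ID4 turned to 0.34 without replicate 1 of both groups; the cause was not tested. A fit with the replicate number as a block gave 5311 rises and 5497 falls, with 10677 of the 10877 calls kept, and 4762 higher and 3980 lower against RP22. Same-numbered libraries share only a number: their deviations from the group means correlated at 0.03, 0.07 and −0.06 over 13761 genes, and not every library correlated best with its own number. Genes with few reads in both groups could not be tested at this depth.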

Other observations

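Gene families taken by their symbols, chosen after the values were seen, add groups that the lists leave out. Of 79 genes of cytosolic ribosomal proteins, the building blocks of ribosomes, 74 fell and 1 rose (median log2 fold change −0.61), and of 76 genes of mitochondrial ribosomal proteins 64 fell and 2 rose (median −0.82). Many ribosomal protein genes have near-identical pseudogenes that can share their reads. Proteasome subunits fell in 32 of 38 genes and rose in none (median −0.78). Nucleoporins, the proteins of the nuclear pore, fell in 19 of 20 (median −1.14), and the HNRNP proteins, which bind nascent RNA, in 20 of 22 with 1 rise (median −0.84). With library totals alone the medians were −1.06, −1.25, −1.22, −1.58 and −1.28.

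Of 39 collagen chains of all types, 25 rose and 9 fell (median 3.02, or 2.58 with library totals alone), and 16 were higher and 13 lower than with RP22. Annexins, which bind membranes in the presence of calcium, rose in 10 of 12 genes and fell in 2 (median 2.82), and S100 calcium-binding proteins rose in 9 of 10 and fell in 1 (median 4.06). Protocadherins, adhesion proteins encoded largely in clusters that share exons, rose in 42 of 59 and fell in 4 (median 1.95). The SLC family of membrane transporters was split, with 136 of 251 rising and 70 falling (median 0.50, or 0.06 with library totals alone). Zinc finger genes named ZNF showed no common direction, with 113 of 470 rising and 185 falling (median −0.10, or −0.54 with library totals alone).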
